A study of Mus musculus with 6 samples.

Results

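The glycolysis isoenzymes examined here are 10 genes that encode alternative forms of the enzymes at 5 steps of glycolysis: the hexokinases Hk1, Hk2 and Hk3, the phosphofructokinases Pfkl and Pfkp, the enolases Eno1 and Eno2, the pyruvate kinase Pkm and the lactate dehydrogenases Ldha and Ldhb. They were taken by gene name from the deposited count table, and all 10 of 10 were found among its 35275 genes and had enough reads for a test, as did 14883 genes in all. RNA came from kidneys of wild-type C57Bl/6 mice 28 days after ischaemia-reperfusion injury, in which blood flow to the kidney is stopped and restored. In the mild group ischaemia lasted 20 min (3 libraries, numbered 7, 8 and 9) and in the severe group 35 min (3 libraries, numbered 13, 14 and 15). All 6 kidneys were injured and uninjured kidneys were not analysed here, so each comparison is of severe with mild injury. The labels do not say that the libraries came from separate mice, so a p-value speaks only to the spread between libraries, which may be technical.

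Glycolysis splits glucose into pyruvate and yields ATP without oxygen. Hexokinase commits glucose to the cell, phosphofructokinase sets the pace, enolase and pyruvate kinase complete the payoff phase, and lactate dehydrogenase interconverts pyruvate and lactate. Healthy proximal tubule burns mainly fatty acids and makes glucose, while more distal segments rely more on glycolysis. Isoenzymes differ in tissue and kinetics, and several of their genes are known targets of the hypoxia-inducible factor HIF.

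The libraries held between 15240491 and 17730967 gene counts. Values below are CPM, counts scaled to a common library size, with library sizes set by the TMM method, on which 1 count was worth 0.0563 to 0.0689 CPM. Severe libraries differed from each other far more than mild ones, by 14.2 to 70.04 times the sampling noise (chi-square per degree of freedom) against 3.67 to 5.34 times. Severe library 14 was the farthest from the mild mean for 8 of the 10 isoenzymes, library 15 for the other 2 and library 13 for 0.

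The 3 least abundant isoenzymes stood about 2 to 3 times higher on average after severe than after mild injury. Under TMM scaling the abundant forms of the same steps, Hk1 and Eno1, were lower on average (-0.17 and -0.29 on the log2 scale). These values depend on the scaling. With library totals as the only scaling, Hk1 was level at -0.003 and Eno1 stood at -0.14. The mean ratio of severe to mild CPM was 3.04 for Hk2, 2.67 for Eno2 and 2.09 for Hk3, with every severe library above every mild one. Pfkp was also higher in every severe library, by 1.16 times. Eno1 and Ldhb were lower in every severe library, at 0.817 and 0.938 times the mild mean. Hk1, Pfkl, Pkm and Ldha had overlapping groups. Of the 10 isoenzymes 0 passed an adjusted p of 0.05 over all genes tested (edgeR quasi-likelihood test, Benjamini-Hochberg adjustment), against 0.0134% of all genes. At an unadjusted p under 0.05 there were 4 higher and 0 lower, against 15.8% and 7.89% of all genes. Every severe library lay above every mild one for 4 of the 10 and below for 2, against 17.9% and 16.1% of all genes. The median log2 fold change was -0.06 over the isoenzymes and 0.00 over all genes tested.

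**Figure D1:**
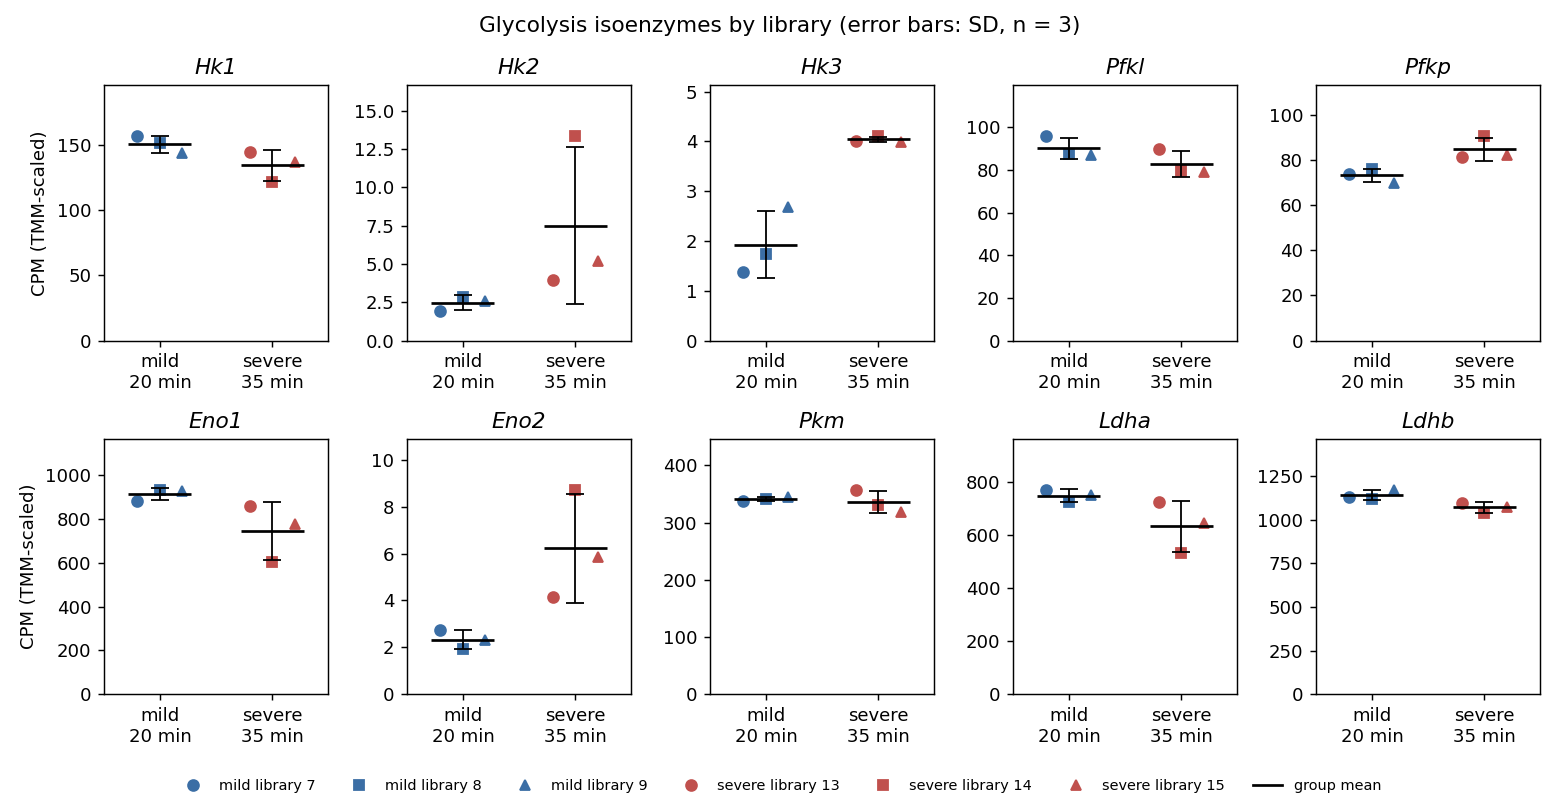
TMM-scaled CPM of each isoenzyme in the 3 mild (blue) and 3 severe (red) libraries, with the group mean and SD; every axis starts at 0. Hk2, Hk3, Eno2 and Pfkp separate upwards in severe libraries, and Hk2 in library 14, at 13.3 CPM, stands far above the other libraries.

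The promoters of Hk2 and Eno2 are shown because these had the largest fold changes, and those of Ldha and Ldhb because lactate dehydrogenase had the highest summed level of the 5 steps. All 10 isoenzymes matched the RefSeq table (GRCm38.p6), with 15 windows from 250 bases before to 50 after a transcript start. Capitals mark the letters ACGTG or GCGTG on either strand, the core of the element that HIF binds; a CACGTG counts on both strands. The window of Hk2 is chr6:82774405-82774704, minus strand, that of Eno2 chr6:124769624-124769923, minus strand, that of Ldha chr7:46845554-46845853, plus strand, the first of 2 listed starts, and that of Ldhb chr6:142507908-142508207, minus strand.
Hk2: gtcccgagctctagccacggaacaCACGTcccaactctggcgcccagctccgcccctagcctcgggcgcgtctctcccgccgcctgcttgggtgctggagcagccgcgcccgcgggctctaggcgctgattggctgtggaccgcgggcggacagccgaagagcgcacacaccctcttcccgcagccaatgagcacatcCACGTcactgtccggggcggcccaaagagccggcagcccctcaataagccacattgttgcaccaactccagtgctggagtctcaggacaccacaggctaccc
Eno2: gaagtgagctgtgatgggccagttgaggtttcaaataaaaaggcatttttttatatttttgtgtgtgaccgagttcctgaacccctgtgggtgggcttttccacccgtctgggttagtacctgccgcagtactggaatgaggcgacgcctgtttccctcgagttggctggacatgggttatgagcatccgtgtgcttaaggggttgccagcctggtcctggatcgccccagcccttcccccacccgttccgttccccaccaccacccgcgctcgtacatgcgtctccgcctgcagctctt
Ldha: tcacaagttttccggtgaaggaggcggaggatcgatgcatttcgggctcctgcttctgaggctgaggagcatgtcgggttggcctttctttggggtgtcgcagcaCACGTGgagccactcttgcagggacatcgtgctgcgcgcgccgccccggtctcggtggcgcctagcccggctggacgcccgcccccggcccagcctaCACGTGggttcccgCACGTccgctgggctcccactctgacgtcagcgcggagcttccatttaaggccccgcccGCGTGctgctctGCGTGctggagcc
Ldhb: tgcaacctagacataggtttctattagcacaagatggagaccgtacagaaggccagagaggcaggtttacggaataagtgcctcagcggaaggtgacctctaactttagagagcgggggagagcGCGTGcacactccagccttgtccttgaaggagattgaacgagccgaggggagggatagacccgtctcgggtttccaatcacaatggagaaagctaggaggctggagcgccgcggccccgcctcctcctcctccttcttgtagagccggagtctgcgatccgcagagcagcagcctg

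The Hk2 window held 2 matches to ACGTG and 0 to GCGTG, that of Eno2 held 0 of either, that of Ldha 5 and 2, with 2 CACGTG among them, and that of Ldhb 0 and 1. Either letters stood in 12 of the 15 windows of the isoenzymes and in 43.8% of all 32851 windows of that length, ACGTG in 19.6% and GCGTG in 32.4%. Base composition was not matched between these sets. The share of G and C in the isoenzyme windows ran from 49% to 69%, and that of all windows was not computed. The isoenzyme windows are not independent, since 2 of those of Eno1 overlap. These 4 genes were picked for their expression values, and no relation between letters and expression was tested. A match is a description of the sequence, and no match says only that these letters are not in the window.

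Hexokinase 1 (Hk1, ENSMUSG00000037012, chr10:62268855-62379908, minus strand; positions are those of the mm10 build) is the housekeeping form, which binds to mitochondria. It stood at 157, 151 and 144 CPM in mild libraries 7, 8 and 9 and at 145, 121 and 137 CPM in severe libraries 13, 14 and 15. The groups overlapped, since library 13 lay just above library 9, and the log2 fold change was -0.17 ± 0.10 (SE; edgeR adjusted p = 0.306).

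Hexokinase 2 (Hk2, ENSMUSG00000000628, chr6:82725025-82774454, minus strand) is the inducible form of muscle, fat and proliferating cells. It stood at 1.93, 2.87 and 2.61 CPM in mild libraries, from 28, 48 and 38 counts, and at 3.95, 13.3 and 5.23 CPM in severe libraries, from 68, 237 and 85 counts. All severe libraries were higher, and library 14 held more than the other two together. The means were 2.47 ± 0.487 and 7.51 ± 5.09 CPM (SD, n = 3 each). On the log2 scale the fold change was 1.60 ± 0.46 (SE; edgeR adjusted p = 0.117), and 0.88 without severe library 14.

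Hexokinase 3 (Hk3, ENSMUSG00000025877, chr13:55005985-55021385, minus strand) is the form of myeloid cells. It stood at 1.38, 1.74 and 2.68 CPM in mild libraries and at 4.01, 4.11 and 3.996 CPM in severe libraries. The severe libraries were nearly level with each other, unlike those for Hk2, and the spread lay among the mild ones. The log2 fold change was 1.06 ± 0.26 (edgeR adjusted p = 0.0963). Its locus overlaps by 34 bases that of Unc5a on the other strand, whose own log2 fold change was 0.87 ± 0.33 (edgeR adjusted p = 0.179), and since the strand setting is not given, reads of that stretch cannot be assigned.

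Per kilobase of gene length, so that genes can be compared, Hk1 made up 94.04% ± 0.913 of the summed level of Hk1, Hk2, Hk3 and Hkdc1 in mild and 89.2% ± 3.83 in severe kidneys (SD, n = 3). The share of Hk2 went from 1.20% ± 0.261 to 3.96% ± 2.87 and reached 7.24% in library 14, and that of Hk3 went from 1.62% ± 0.616 to 3.57% ± 0.220. Hkdc1, a further hexokinase, held 3.14% ± 0.397 and 3.27% ± 0.776, with overlapping groups. The summed level of these 4 was 37.4 ± 1.29 CPM per kilobase in mild and 35.2 ± 1.67 in severe kidneys, also overlapping. The differences in Hk2 and Hk3 were thus small beside the level of Hk1.

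The liver form of phosphofructokinase (Pfkl, ENSMUSG00000020277, chr10:77986947-78010083, minus strand) stood at 95.9, 87.4 and 87.1 CPM in mild and at 90.03, 79.3 and 78.9 CPM in severe libraries. Library 13 lay inside the mild range, and the log2 fold change was -0.12 ± 0.09 (edgeR adjusted p = 0.384). The platelet form (Pfkp, ENSMUSG00000021196, chr13:6579768-6648777, minus strand) stood at 73.5, 75.9 and 69.9 CPM in mild and at 81.4, 90.5 and 82.02 CPM in severe libraries. The groups did not overlap, and severe was 0.21 ± 0.08 higher on the log2 scale (edgeR adjusted p = 0.17). The Pfkp locus overlaps by 372 bases that of the protease gene Pitrm1 on the other strand, whose log2 fold change was -0.14 ± 0.09 (edgeR adjusted p = 0.331). In GENCODE M21, whose gene models may differ from the authors', transcripts of Pfkp and Pitrm1 share 748 bases at 100% identity, so part of the Pfkp count is uncertain.

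The muscle form Pfkm, the third gene of this step, was lower in every severe library, opposite to Pfkp. Its mild libraries gave 70.9, 69.5 and 69.6 CPM and its severe ones 63.7, 43.7 and 57.9 CPM, which gave a log2 difference of -0.34 ± 0.13 (edgeR adjusted p = 0.178). Per kilobase, Pfkp went from 24.4% ± 0.908 to 30.7% ± 3.74 of the phosphofructokinase level and Pfkm from 37.9% ± 0.722 to 32.02% ± 4.20, each with groups that did not overlap. Pfkl held 37.7% ± 1.12 and 37.3% ± 1.17, with overlapping groups.

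Alpha enolase (Eno1, ENSMUSG00000063524, chr4:150236721-150248879, plus strand), the general form, stood at 883, 933 and 925 CPM in mild and at 860, 601 and 777 CPM in severe libraries. Every severe library was lower, library 13 only by a little, and the log2 fold change was -0.29 ± 0.17 (edgeR adjusted p = 0.300). Gamma enolase (Eno2, ENSMUSG00000004267, chr6:124760053-124769673, minus strand) is known as the form of neurons and neuroendocrine cells. It stood at 2.76, 1.92 and 2.33 CPM in mild libraries, from 40, 32 and 34 counts, and at 4.13, 8.72 and 5.84 CPM in severe libraries, from 71, 155 and 95 counts. The groups were well apart, with means of 2.34 ± 0.42 and 6.23 ± 2.32 CPM (SD, n = 3 each).

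Eno2 was 1.42 ± 0.31 higher on the log2 scale (edgeR adjusted p = 0.0867), the smallest p of the 10 isoenzymes and the 293rd of all genes tested. Without severe library 14 it was 1.10, and the edgeR adjusted p was then 0.0392, with 501 genes called in all. Without severe library 13 the edgeR adjusted p was 0.00612, and without any single one of the other libraries it lay from 0.209 to 0.319. Of 5 neural markers 2 were tested, and 1 of these, Uchl1 (0.61 ± 0.25 on the log2 scale), named after its values were seen, was higher in every severe library. The neuronal tubulin Tubb3 stood at 0.206 to 0.539 CPM in mild and 0.291 to 2.70 CPM in severe libraries, the synaptic protein gene Syp at 2.61 to 5.03 and 2.25 to 3.50 CPM. The tyrosine hydroxylase gene Th had 0 counts in every library. Sox10, also named after its values were seen, was lower on average in severe libraries. It stood at 0.120 to 0.549 CPM in mild and 0 to 0.281 CPM in severe libraries, with overlapping groups. The list summed to between 6.11 and 7.93 CPM in mild and between 7.04 and 10.5 CPM in severe libraries, which overlap, and its part in the result was not tested. Eno1 still held 98.7% ± 0.0917 of the enolase level per kilobase in mild and 98.03% ± 0.658 in severe kidneys, and the summed enolase level, with the muscle form Eno3, was lower in every severe library (456 ± 13.1 against 375 ± 64.2 CPM per kilobase).

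Pyruvate kinase M (Pkm, ENSMUSG00000032294, chr9:59656368-59679375, plus strand) encodes the M1 and M2 forms by alternative splicing, which counts per gene do not separate. Its group means were the closest of the 10, with 338, 342 and 345 CPM in mild and 358, 332 and 319 CPM in severe libraries. The log2 fold change was -0.02 ± 0.11 (edgeR adjusted p = 0.902), with the mild values inside the severe range. Pklr, the liver and red-cell form that the proximal tubule also uses, was 0.07 ± 0.10 higher on the log2 scale (edgeR adjusted p = 0.671) and held 8.91% ± 0.673 of the pyruvate kinase level per kilobase in mild and 9.51% ± 1.34 in severe kidneys.

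Lactate dehydrogenase A (Ldha, ENSMUSG00000063229, chr7:46841475-46855627, plus strand) favours the making of lactate and B (Ldhb, ENSMUSG00000030246, chr6:142490249-142507957, minus strand) its use. Ldha stood at 772, 724.5 and 754 CPM in mild and at 724.5, 533 and 645 CPM in severe libraries. Library 13 was level with mild library 8, so the groups touched, and the log2 fold change was -0.24 ± 0.15 (edgeR adjusted p = 0.339). Ldhb stood at 1130.02, 1118 and 1171 CPM in mild and at 1097, 1039 and 1072 CPM in severe libraries, which gave a log2 difference of -0.09 ± 0.14 (edgeR adjusted p = 0.687). Its groups did not overlap, though the means were close, at 0.938 times. Per kilobase Ldhb held 67.3% ± 0.723 of the lactate dehydrogenase level in mild and 69.7% ± 2.67 in severe kidneys, so the B form led in every library, and the testis form Ldhc had at most 1 count.

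Ratios of isoenzymes within a library do not depend on how libraries are scaled, and 5 were compared. The log2 ratio of Eno2 to Eno1 was higher in severe than in mild kidneys by 1.62 ± 0.49 (SE), that of Hk2 to Hk1 by 1.54 ± 0.63, that of Hk3 to Hk1 by 1.23 ± 0.31 and that of Pfkp to Pfkl by 0.33 ± 0.11. In each of these 4 every severe library exceeded every mild library (exact permutation test, two-sided, p = 0.1 each, and 0.125 adjusted over the 5 ratios). For Eno2 to Eno1 the log2 values were -8.25, -8.84 and -8.55 in mild and -7.66, -6.09 and -7.03 in severe libraries, with library 14 the highest. For Pfkp to Pfkl they were -0.38, -0.20 and -0.32 in mild and -0.15, 0.19 and 0.06 in severe libraries, so Pfkp had more counts than Pfkl in libraries 14 and 15. With 3 against 3 libraries 0.1 is the smallest p the test allows, so none could pass 0.05. The ratio of Ldhb to Ldha differed by 0.16 ± 0.11 with overlapping groups (exact p = 0.3). Its log2 values were 0.55, 0.63 and 0.64 in mild and 0.60, 0.96 and 0.73 in severe libraries, all above 0. Without severe library 14 the differences were 1.20 for Eno2 to Eno1, 0.96 for Hk2 to Hk1 and 0.06 for Ldhb to Ldha.

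**Figure D2:**
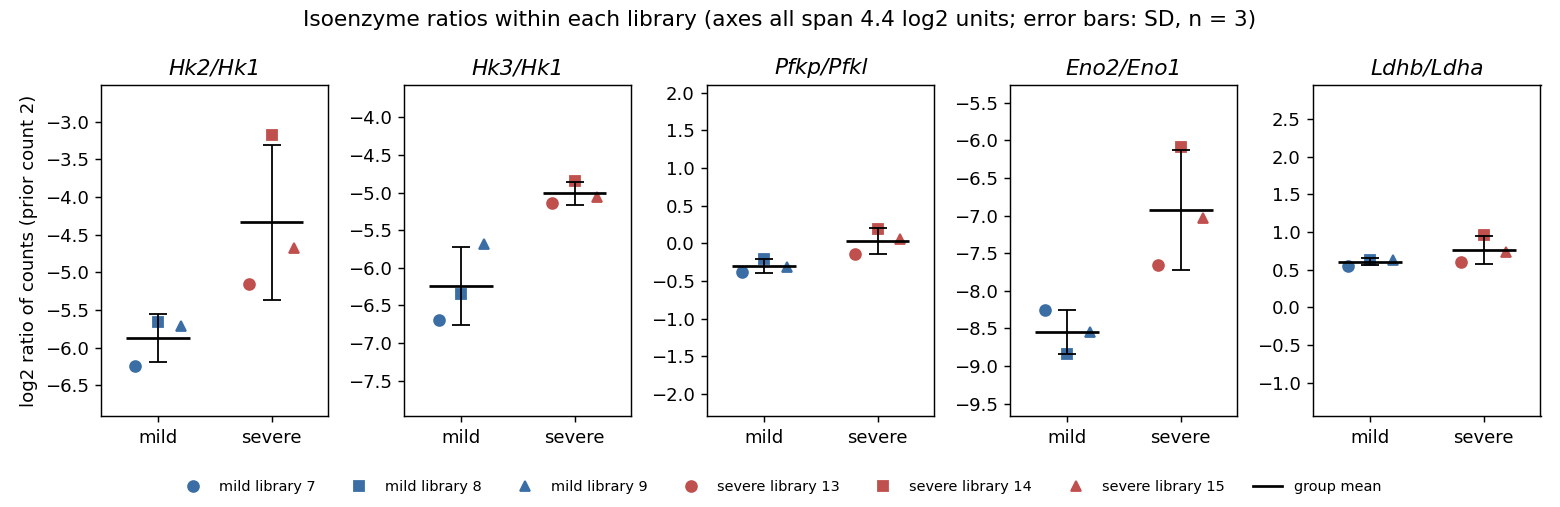
Log2 ratio of the counts of 2 isoenzymes of the same step in each library, with group mean and SD; all axes span the same number of log2 units. The first 4 ratios are higher in every severe library, by 1.54, 1.23, 0.33 and 1.62 on average, and Ldhb/Ldha overlaps.

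In order of level per kilobase, Ldhb led in both groups (874 ± 21.3 and 820.0 ± 22.6 CPM per kilobase). Eno1 (451 ± 13.1 and 368 ± 65.2) and Ldha (425 ± 13.6 and 359 ± 54.4) followed and were not apart beyond their spread, Ldha being the higher of the pair in libraries 7 and 14. Pkm (140.5 ± 1.37 and 138 ± 8.05), Hk1 (35.2 ± 1.53 and 31.4 ± 2.80), Pfkl (24.2 ± 1.33 and 22.2 ± 1.69) and Pfkp (15.7 ± 0.649 and 18.2 ± 1.10) came next. Eno2, Hk3 and Hk2 came last, at 0.836 ± 0.150, 0.5997 ± 0.208 and 0.448 ± 0.0883 in mild and 2.23 ± 0.830, 1.25 ± 0.0186 and 1.36 ± 0.923 in severe kidneys, where Hk2 and Hk3 were not apart beyond their spread. The isoenzymes that stood at least 2 times higher were therefore the 3 with the lowest levels.

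Among the other enzymes listed with the pathway most values lay slightly below 0 on the log2 scale. The list includes Ldhd, which acts on D-lactate and was left out of the lactate dehydrogenase level and of the pathway figure. Of 16 listed genes 15 were tested, 13 had a negative and 2 a positive log2 fold change, and 0 passed the adjusted threshold, with a median of -0.22. Scaling by library totals moved the median of all genes by 0.17 on the log2 scale, so the smaller negative values may depend on the scaling. Every severe library lay below every mild one for 5 (Pfkm, Ldhd, Gapdh, Pgk1 and Tpi1), and above for 0, against 16.1% and 17.9% of all genes. The last 3 of these were named after their values were seen. On the log2 scale Gapdh, which makes NADH, stood at -0.37 ± 0.20, the first ATP-yielding enzyme Pgk1 at -0.36 ± 0.17, Tpi1 at -0.30 ± 0.17 and the D-lactate dehydrogenase Ldhd at -0.46 ± 0.27 (SE; edgeR adjusted p from 0.239 to 0.317 for these 4). The isoenzymes Eno3 and Hkdc1 stood at -0.01 ± 0.14 and -0.04 ± 0.21, and Ldhc had too few counts for a test.

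**Figure D3:**
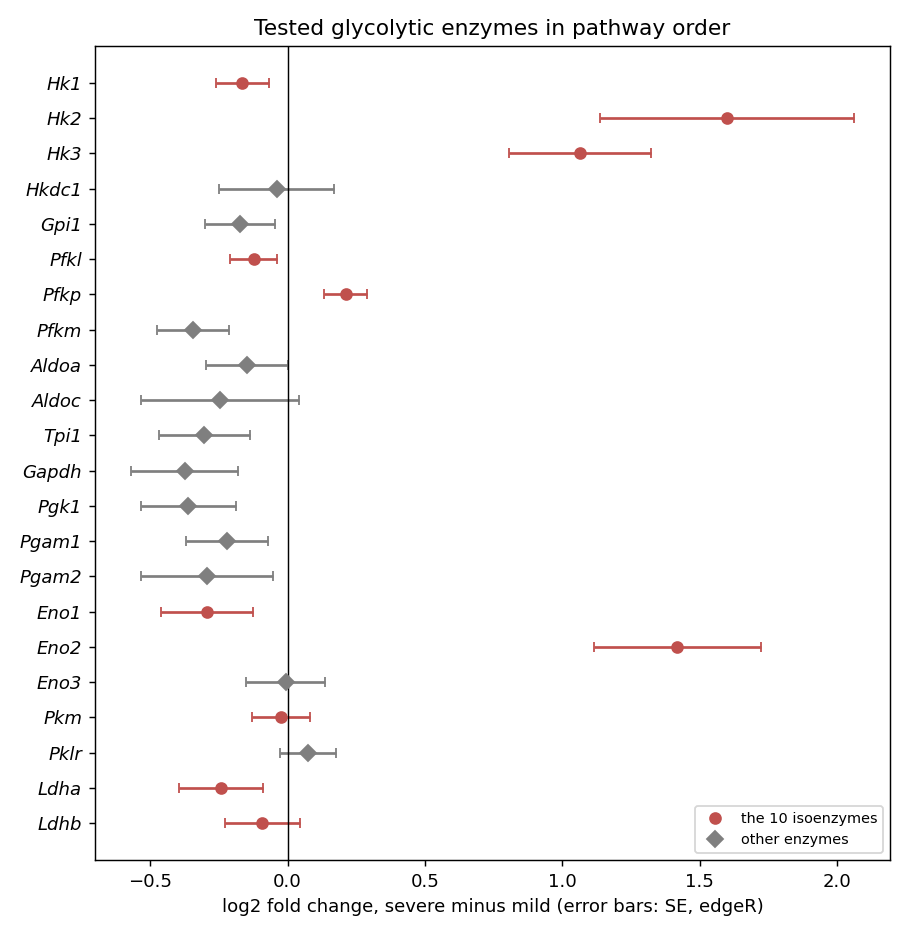
Log2 fold change (severe minus mild, bars SE) of the tested glycolytic enzymes in the order of the pathway. Hk2 (1.60), Eno2 (1.42) and Hk3 (1.06) stand apart to the right, Pfkp (0.21) is slightly above 0, and most other enzymes lie between 0 and -0.5.

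Of 15 genes that control entry to or exit from glycolysis, 7 were positive and 8 negative, with a median of -0.08 and 0 called. On the log2 scale Pdp1, the phosphatase that activates pyruvate dehydrogenase, stood at 0.48 ± 0.19 and Hif1a, the oxygen-regulated subunit of HIF, at 0.16 ± 0.10. Pfkfb4, which makes an activator of phosphofructokinase, stood at 0.12 ± 0.11. On the other side were the pyruvate dehydrogenase kinases Pdk1 at -0.25 ± 0.12 and Pdk3 at -0.31 ± 0.15, and the dehydrogenase subunit Pdhb at -0.29 ± 0.13 (edgeR adjusted p from 0.196 to 0.51 for these 6).

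Of 9 transporters of glucose and lactate, 3 were positive and 6 negative, with a median of -0.18 and 0 called. The lactate exporter Slc16a3 had a log2 fold change of 0.59 ± 0.27, from 2.35 ± 0.704 to 3.52 ± 0.603 CPM, and the high-affinity glucose transporter Slc2a3 one of 0.67 ± 0.44. The general glucose transporter Slc2a1 stood at 0.04 ± 0.07, the renal glucose reabsorber Slc5a2 at -0.60 ± 0.21, Slc16a7 at -0.42 ± 0.20 and Slc5a1 at -0.17 ± 0.10 (edgeR adjusted p from 0.159 to 0.727 for these 6).

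In bulk kidney RNA fewer cells of a type and less RNA per cell cannot be told apart. All 15 macrophage markers were positive, with a median log2 fold change of 1.12, and 13 separated upwards, against 17.9% of all genes. They summed to between 369 and 444 CPM in mild libraries and to 672, 1328 and 838 CPM in severe libraries 13, 14 and 15. The first of the list, Emr1 and Csf1r, stood at 0.98 ± 0.26 and 0.45 ± 0.11 on the log2 scale. The order of the sums over severe libraries was that of Hk2 and Eno2, while Hk3 was level over these libraries. Fibroblast and injured-tubule markers summed in the same order, so it was not particular to macrophage markers. Of 10 neutrophil markers 1, the receptor gene Csf3r, had enough counts for a test and was 1.14 ± 0.38 higher on the log2 scale (edgeR adjusted p = 0.144), above every mild library in each severe one. The list summed to 2.26 to 4.55 CPM in mild and 6.75 to 12.4 CPM in severe libraries. S100a8 stood at 0.137 to 0.419 CPM in mild and 0.307 to 1.41 CPM in severe libraries, with overlapping groups. S100a9 stood at 0 to 0.180 and 0.369 to 1.01 CPM and Retnlg at 0.0686 to 0.120 and 0.246 to 0.506 CPM, both higher in every severe library, while Mpo and Camp had 0 counts in every library. Counts were few, at 0 to 3 in mild and 6 to 18 in severe libraries for S100a9 and 1 to 2 and 4 to 9 for Retnlg. The groups overlapped for Ltf (2 to 8 and 6 to 10 counts) and Cxcr2 (0 to 4 and 1 to 7 counts). Elane and Ly6g had at most 1 count in a library. All of these but S100a8 and S100a9 were named after their values were seen.

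Fibroblast markers (9 of 9 separated upwards, median 1.86) summed to between 606 and 759 CPM in mild and to 1288, 4141 and 2183 CPM in severe libraries, and injured-tubule markers (4 of 7 separated upwards, median 1.47) to between 1782 and 2370 CPM and to 2485, 9093 and 4780 CPM. Proximal tubule markers (9 of 12 separated downwards, median -0.51) summed to between 39726 and 42311 CPM in mild and to 34842, 17407 and 31204 CPM in severe libraries, and those of the loop of Henle and distal tubule (4 of 6 separated downwards, median -0.46) to between 8118 and 8349 CPM and to 7497, 4498 and 6902 CPM. Collecting duct (0 of 6 separated, median -0.25), endothelial (1 of 5 upwards, Cdh5, named after its values were seen, median 0.05) and podocyte markers (1 of 4 downwards, median -0.01) had medians nearer 0. Lymphocyte (4 of 7 tested, median 0.61), erythroid (3 of 5, median 1.90) and adipocyte markers (1 of 3, 0.02) separated in 0 cases, and erythroid markers summed to 48.6 CPM in library 13 against 1.92 to 11.0 CPM in the other libraries. Over all genes tested 17.9% separated upwards and 16.1% downwards. On the log2 scale the first markers of these lists stood as follows. Pdgfra and Pdgfrb of fibroblasts stood at 1.86 ± 0.36 and 1.32 ± 0.25, and Havcr1 and Lcn2 of injured tubule at 1.98 ± 0.53 and 2.07 ± 0.52. Slc34a1 and Slc5a2 of proximal tubule stood at -0.53 ± 0.29 and -0.60 ± 0.21, Slc12a1 and Umod of the loop at -0.45 ± 0.24 and -0.36 ± 0.24, and Nphs1 of podocytes at -0.30 ± 0.13. Aqp2 and Aqp3 of collecting duct stood at -0.14 ± 0.21 and -0.31 ± 0.20, Pecam1 and Kdr of endothelium at 0.12 ± 0.11 and -0.12 ± 0.17, and Cd3e and Cd3d of lymphocytes at 0.27 ± 0.59 and 0.60 ± 0.46. Hbb-bs and Hbb-bt of red cells stood at 1.93 ± 0.91 and 1.36 ± 0.97 and Fabp4 of adipocytes at 0.02 ± 0.18, while Adipoq had too few counts for a test. The skeletal muscle markers Ckm and Acta1 stood at 0 to 0.0615 and 0 to 0.281 CPM. The part of these markers in the isoenzyme values was not tested.

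**Figure D4:**
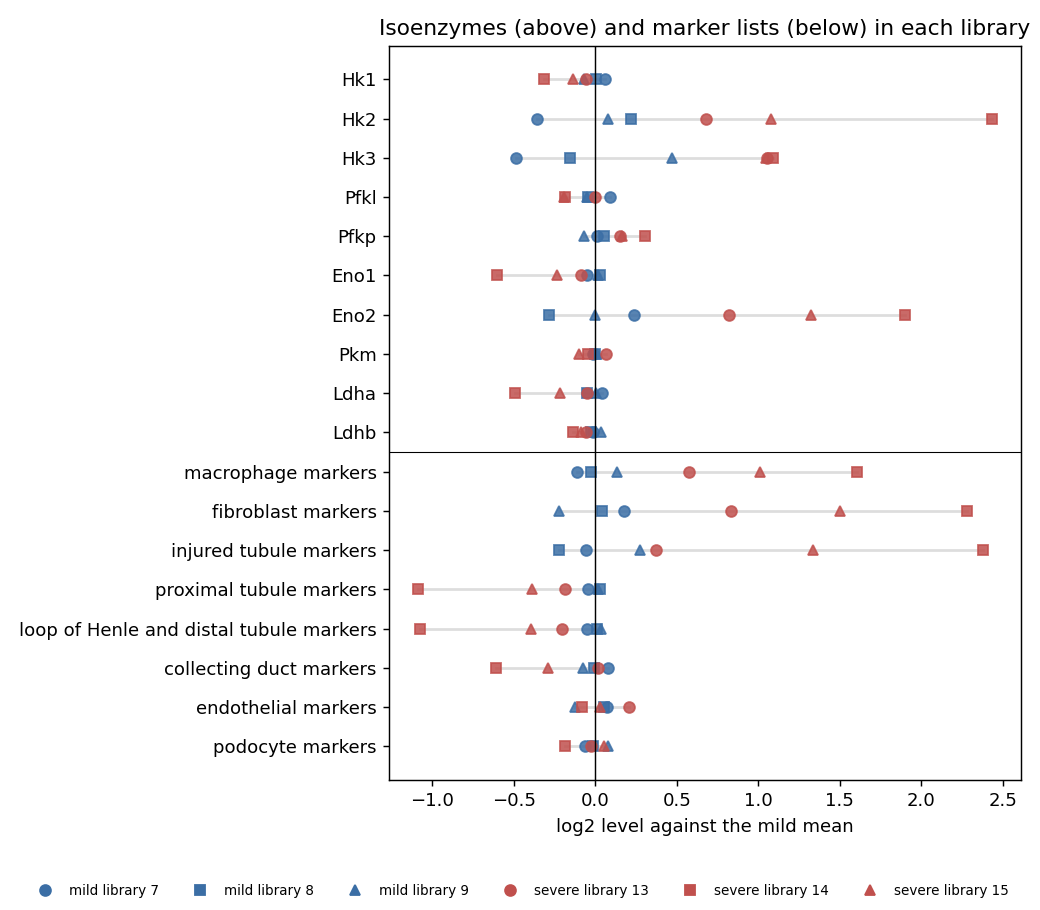
Log2 level of each isoenzyme (above the line) and mean log2 level of each marker list (below it) in each library, against the mean of the mild libraries. Severe libraries lie in the order 13, 15, 14 away from 0 for Hk1, Hk2, Pfkp, Eno1, Eno2, Ldha and Ldhb. They do so too for the macrophage, fibroblast, injured-tubule, proximal tubule, loop and distal tubule, and collecting duct markers. Hk3 is nearly level at 1.05 to 1.09, and Pfkl, Pkm and the endothelial and podocyte markers follow another order.

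The isoenzymes called differed between methods and with the libraries used. DESeq2 called Hk2, Hk3 and Eno2 higher (adjusted p = 0.011, 0.0137 and 0.00182), among 7.19% of genes called higher by it, and so did edgeR without severe library 13, among 13.8%. Without severe library 14 edgeR called Eno2 alone, among 2.40%, and likewise without a filter on low counts, among 0.591%. Limma-voom with sample quality weights called 4 isoenzymes higher and 3 lower, among 18.2% and 15.7% of genes. Without library 13 there were 6 isoenzymes below every mild library, against 26.8% of genes, and with library totals as the only scaling there were 0, against 6.61%. That scaling moved the median of all genes by 0.17 on the log2 scale, and under it Pfkl, Pkm and Ldhb turned positive at 0.04, 0.14 and 0.08, below that shift.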

How the data were processed

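Poly-A RNA libraries of 6 mouse kidneys, 3 mild and 3 severe, were analysed. Per the submitters' processing notes, Bowtie2 2.2.3, TopHat2 2.0.12, HTSeq 0.6.1 and mm10 were used; which tool did what, how strand was treated and which annotation release served are not stated in the sources at hand. The authors deposited raw read counts per Ensembl gene, and, in another column of the deposited table, gene lengths. Each column name carries its group, but its number matches no title; 0 columns of values were left out. Within each group every pair of libraries differed beyond sampling noise.

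Low-count genes were dropped by filterByExpr in edgeR 4.0.16 (R 4.3.3); the rest were scaled by TMM and tested with the robust quasi-likelihood F test, p-values being adjusted by Benjamini-Hochberg across every gene tested, at 0.05. The SE of a log2 fold change is its size divided by the root of F. Tested on simulated counts (14774 genes, real means and library sizes), it recovered 28.4%, 82.1% and 96.9% of genes changed 1.5-, 2- and 4-fold, and 9 of 145 calls were false. In the real data it called 2 of 14883 genes. Havcr1 and Lcn2, with fitted folds of 3.93 and 4.19, were not among them (edgeR adjusted p = 0.107 and 0.100). The simulated shares therefore need not hold for the real libraries, whose severe group spread widely. Ratios used a prior count of 2 and an exact permutation test over all 20 ways to assign libraries (scipy 1.17.1). List means of log2 CPM used a prior of 0.5 CPM.

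The isoenzymes and lists were chosen with earlier results of these data known. All 166 list entries matched a gene; some items are not reported here. Named were the 10 isoenzymes, the other genes of their steps together with Ldhd, and the first 2 markers of each list. In the other pathway lists up to 3 genes per direction with the smallest p were named. Exceptions are marked, and Th, at 0, was also named after its values were seen. Near-identical copies were sought with BLAST 2.17.0 in GENCODE M21 transcripts (95% identity over at least 200 bases) and, leaving out the hit of Pfkp to Pitrm1, whose loci overlap, were found for Eno1, Ldha and Ldhb, with at most 0.338% of the counts of the isoenzyme. Alternatives were scaling by RLE, by the upper quartile or by library totals, other filters, DESeq2 1.42.0, limma-voom (limma 3.58.1) with and without quality weights, non-robust dispersion, a fit lacking mitochondrial genes and any gene above 1% of counts, omission of each library, and prior counts of 0.5 and 5 for ratios; the summing of copies was added after seeing the data. Figures were drawn with matplotlib 3.10.9.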

Additional observations from a re-analysis of the deposited data

How the results depend on the processing

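Past the threshold were 2 genes. That number was 1 with library totals as the scaling, 146 without a filter on low counts, 1171 with DESeq2 and 5041 with limma-voom and sample quality weights, and leaving out each library gave 0 to 3269. The count of isoenzymes past it was 0, and it was 1 without a filter, 3 with DESeq2, 7 with quality weights and 0 to 3 with a library left out (3 without severe library 13, 1 without severe library 14). Isoenzymes lower in every severe library numbered 2, 3 with RLE scaling, 0 with library totals and 2 to 6 with a library left out (6 without severe library 13). Those higher numbered 4 or 5 under every alternative run for them. Of 170 alternative log2 fold changes of single isoenzymes 5 had the other sign, 3 of Pkm and 1 each of Pfkl and Ldhb, none past the threshold. All 40 alternative isoenzyme ratios kept their direction. Summing near-identical copies, added after seeing the data, changed 0 of these counts. The labels number the mild kidneys 1 to 3 and the severe ones 4 to 6. No paired analysis was possible because the groups share no replicate number. With 28 to 48 counts of Hk2, 20 to 39 of Hk3 and 32 to 40 of Eno2 in a mild library, counting error is large for these 3. The causes of the changed counts were not tested.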

Other observations

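Other targets of the hypoxia-inducible factor mostly had negative log2 fold changes under TMM scaling, and 1 stood out on the higher side. Of 11 tested genes 10 had a negative log2 fold change and 1 a positive one, with a median of -0.18 and 0 past the adjusted threshold. Every severe library lay below every mild one for 4 and above for 1, against 16.1% and 17.9% of all genes. Scaling by library totals moved the median of all genes by 0.17 on the log2 scale, about the size of the list median. The smaller negative values may therefore depend on the scaling. Ddit4, a stress-induced inhibitor of mTOR signalling, stood at 28.0, 26.6 and 26.5 CPM in mild and at 43.4, 58.6 and 44.2 CPM in severe libraries. The groups were far apart, with a log2 fold change of 0.85 ± 0.12 (SE; edgeR adjusted p = 0.0867), the 14th smallest p of all genes tested. Vegfa, a vascular growth factor, stood at -0.37 ± 0.18, the mitophagy receptor Bnip3 at -0.26 ± 0.12 and the HIF prolyl hydroxylase Egln1 at -0.25 ± 0.12, each lower in every severe library (edgeR adjusted p from 0.227 to 0.252).

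Among 7 genes of gluconeogenesis, the making of glucose, 6 were negative and 1 positive, with a median of -0.39 and 0 called. The positive one was Pck2, the mitochondrial form of phosphoenolpyruvate carboxykinase, at 20.8, 21.1 and 23.2 CPM in mild and 25.0, 30.8 and 28.7 CPM in severe libraries (log2 fold change 0.38 ± 0.10, edgeR adjusted p = 0.111). The cytosolic form Pck1, named after its values were seen, stood at -0.48 ± 0.36 with overlapping groups. Fbp1, the bisphosphatase that opposes phosphofructokinase, stood at -0.48 ± 0.24, its muscle form Fbp2 at -0.27 ± 0.11 and pyruvate carboxylase (Pcx) at -0.56 ± 0.26, each lower in every severe library. Pck1 and Pck2 thus lay on opposite sides of 0, while Fbp1 and Fbp2 were both negative. So were G6pc and G6pc3, at -0.39 and -0.15 on the log2 scale, also named after their values were seen. Differences between these isoenzymes were not tested.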
